A study of Mus musculus with 3 samples.

Results

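Vascular smooth muscle cells of the mouse aortic wall are described here as they appeared in single-cell RNA profiles of the adventitia, the outer layer of the vessel. They were the barcodes, after a filter of at least 500 UMIs, at least 300 genes and at most 10% mitochondrial UMIs, that held at least 2 UMIs of Myh11 (smooth muscle myosin heavy chain). They also gave at least 1% of their UMIs to Myh11, Acta2 (smooth muscle alpha-actin) and Tagln (transgelin, an actin-binding protein) together, and less than 0.1% to the macrophage complement genes C1qa, C1qb and C1qc. A UMI is a tag that counts an RNA molecule once. Of 42779 barcodes past the filter, 688 were smooth muscle cells by this rule: 45 of 19019 in AngII_VWR, 15 of 9899 in AngII and 628 of 13861 in Vehicle. The members were thus chosen by measured values, so their levels of the 3 genes, and every difference of Vehicle members from other Vehicle cells are given as descriptions and carry no test.

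The AngII_VWR group received angiotensin II, a peptide hormone that raises blood pressure, and had access to a running wheel. The AngII group received angiotensin II alone, and the Vehicle group received saline. Each group held 3 of the 9 mice and reached the files as 1 library. Whether the mice of a group were pooled was not in the labels, and neither were strain, age, sex, or the dose and duration of the hormone. With 1 library per group there was no replicate of any condition: values are given per library with 95% intervals that cover counting error only. Those of shares are exact Clopper-Pearson, those of levels exact Poisson and those of ratios exact conditional intervals.

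Smooth muscle cells form the middle layer of the aorta, where they hold vascular tone by calcium-driven sliding of actin and myosin filaments and build the elastic and collagen sheets of the wall. Their contractile genes are driven by serum response factor with its partner myocardin, which act at a DNA element called the CArG box. Contractile cells can lower these genes and take up a matrix-producing state, called synthetic or modulated. The tissue was peeled adventitia digested with Liberase and elastase, so smooth muscle cells were not the layer aimed at.

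The members made up 0.237% (0.173 to 0.317%) of barcodes in AngII_VWR, 0.152% (0.0848 to 0.250%) in AngII and 4.53% (4.19 to 4.89%) in Vehicle. The AngII share was 0.0335 times the Vehicle share (interval 0.0186 to 0.0556), and the AngII_VWR share was 1.56 times the AngII share (0.854 to 3.02), an interval that holds 1. Such a share depends on how much of the middle layer came off with the adventitia and survived digestion, neither of which was measured, so condition and preparation cannot be told apart. Barcodes with at least 2 Myh11 UMIs numbered 73, 36 and 866 in AngII_VWR, AngII and Vehicle. The 1% limit left out 25, 19 and 208 of them, and the C1q limit 3, 2 and 30. Members held 74.1%, 85.4% and 91.8% of all Myh11 UMIs of AngII_VWR, AngII and Vehicle.

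The members had a median of 8996 UMIs in AngII_VWR, 19033 in AngII and 20363 in Vehicle, against 4631, 13457.5 and 9612 in the other barcodes of the same libraries. In sum they held 433471, 326846 and 13325426 UMIs, so levels in AngII_VWR and AngII rest on far fewer molecules. Their median mitochondrial share was 5.05%, 5.13% and 4.03%, above the 2.35%, 2.49% and 1.70% of the other barcodes. The libraries shared few cell barcodes: 80 between AngII_VWR and Vehicle (4 of them Vehicle members), 68 between AngII_VWR and AngII, and 44 between AngII and Vehicle (7 of them Vehicle members). No barcode was a member in both libraries of any pair.

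Markers that the rule did not use matched the label. All 13 other smooth muscle markers listed were at least 2-fold higher in Vehicle members than in Vehicle fibroblasts, and their summed level was 14837 UMIs per 1000000 (CPM) in members, against 173.1 in fibroblasts and 81.4 in macrophages. Fibroblasts here are the 3986 Vehicle barcodes with at least 2 UMIs of Pdgfra, at least 0.5% of UMIs from Dcn, Col1a1 and Col1a2, and no Myh11. Among the markers of other cells, the 7 macrophage markers left after C1q summed to 73.8 CPM in Vehicle members, the 10 endothelial ones to 51.5 CPM with Emcn at 0, and the 6 Schwann cell ones to 2.18 CPM with Sox10 at 0. Mki67 and 5 other genes of dividing cells summed to 7.81 CPM. Fibroblast markers were present at 3279 CPM over 12 genes and red blood cell markers at 3750 CPM over 6 genes, and both were highest in sub-clusters described further on.

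Barcodes just inside and just outside the 1% limit carried both smooth muscle and fibroblast markers. In Vehicle, 28 members with 1 to 1.5% of UMIs from the 3 genes had a median of 6902 UMIs and 18188 CPM of fibroblast markers. The 48 barcodes left out at 0.5 to 1% had a median of 10492 UMIs and 24030 CPM of fibroblast markers. The other smooth muscle markers stood at 5603 CPM inside and 3959 CPM outside the limit.

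In Vehicle members, the genes that chose them stood at 3314 CPM for Myh11, 21278 CPM for Acta2 and 14310 CPM for Tagln. Macrophages of the same library, which should lack them, held 7.51, 74.4 and 46.2 CPM, and 54.8% of macrophages had at least 1 Acta2 UMI. Shares of members with a UMI are therefore set beside those of macrophages of the same library, whose Vehicle median depth was 12731 UMIs, against 20363 in the members.

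With the genes of the rule left out, Rgs5 came first among named genes of at least 100 CPM ranked by ratio to all other Vehicle barcodes. Rgs5 (chr1:169655501-169695813 in mm10, plus strand) encodes a regulator that shortens signalling by G protein-coupled receptors and is often used as a pericyte marker. It stood at 3470 CPM in members, 27.8 in all other barcodes and 6.79 in fibroblasts, a ratio of 124.8 to the others (interval 120.9 to 128.9). At least 1 UMI was found in 85.5% of members and 9.72% of macrophages. Thinned to 5000 UMIs per cell, the share was 80.4% of members, 3.86% of fibroblasts and 4.50% of macrophages. Thinned shares leave out the cells below 5000 UMIs, which were 27 of 628 members, 493 of 3986 fibroblasts and 419 of 2552 macrophages here. Sost (sclerostin, a secreted Wnt inhibitor best known from bone) stood at 534 CPM in members against 4.38 in the others, a ratio of 121.9. Npnt (nephronectin, an integrin ligand) stood at 831 CPM against 6.98, a ratio of 119.2. Itga8, the integrin subunit that binds nephronectin, stood at 1532 CPM in members against 16.6 in the others.

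The same ranking held Cnn1 (calponin, an actin-binding inhibitor of myosin) at 1321 CPM in members against 11.9 in the others, and Tpm2 (beta-tropomyosin) at 4491 against 49.5. Lmod1 (leiomodin, which nucleates actin filaments) stood at 668 CPM against 7.57. Kcnmb1, the beta subunit of the calcium-activated potassium channel, stood at 138 against 1.18. Ryr2, a calcium release channel of the sarcoplasmic reticulum, stood at 268 against 3.15, and Actg2 (enteric gamma-actin) at 177 against 1.82. Erbb4 (a neuregulin receptor) and Ptprz1 (a receptor phosphatase), both also known from the nervous system, were among these genes, at 336 against 3.45 CPM and 441 against 4.74 CPM. Mylk4, Susd5, Tcap, Optc, Sh3bgr, Fbxl22 and Myocd were also in the list. At the other end, Mctp1, Cd74, Mrc1, F13a1 and Ctss stood at 3.08, 24.99, 6.98, 12.1 and 2.48 CPM in members, and each was at least 100 CPM in the others, where macrophages held 1315, 5123, 2200, 3568 and 863 CPM.

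**Figure D1:**
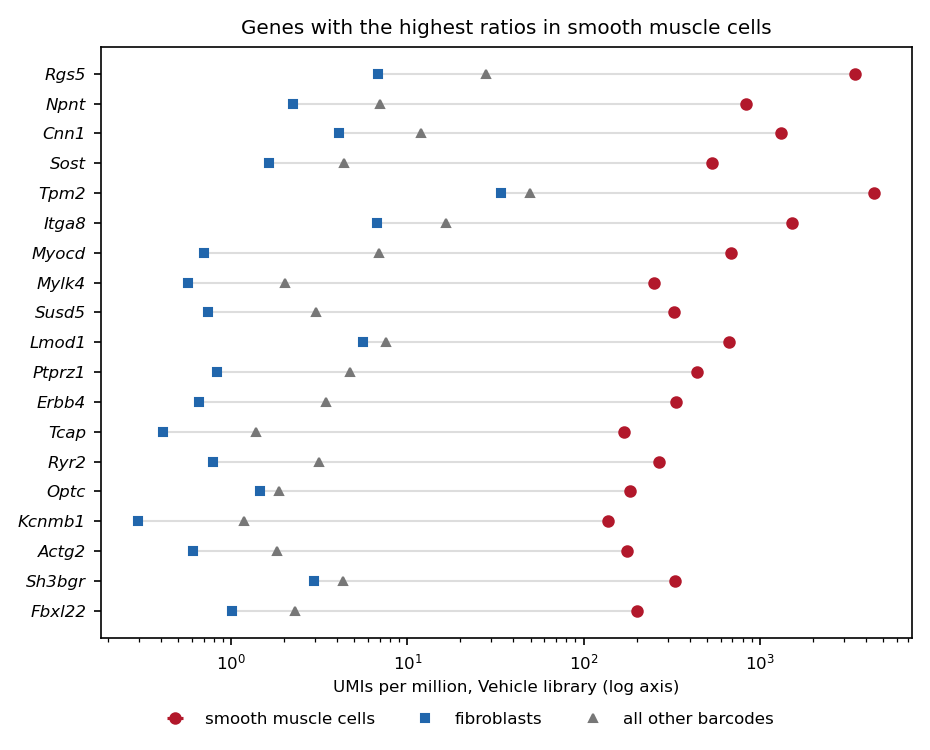
Levels in the Vehicle library of genes with the highest ratio of smooth muscle cells to all other barcodes, in CPM on a log axis, with a point each for smooth muscle cells, fibroblasts and all other barcodes. Rgs5 stands at 3470 in smooth muscle cells, 6.79 in fibroblasts and 27.8 in all other barcodes.

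Over the whole transcriptome, 1209 (11.0%) of the 10967 genes measured in Vehicle members or fibroblasts were at least 2-fold higher in members and 1793 (16.3%) were at least 2-fold lower. Against all other barcodes, 10.1% of 11409 genes were higher and 21.0% lower. A gene counted as measured with at least 5 CPM in either population and at least 10 UMIs over both, and ratios are log2 ratios of CPM + 1. Gene lists are read against the 11.0 and 16.3% of the comparison with fibroblasts and its median log2 ratio of -0.12 over all genes.

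Genes of the thin and thick filaments, beyond those of the rule, were higher as a group. Of 24 genes, 17 were at least 2-fold higher in members than in fibroblasts and 0 were lower, with a median log2 ratio of 2.69. Myl9, the regulatory light chain whose phosphorylation starts contraction, stood at 3787 CPM in members against 57.6 in fibroblasts, a ratio of 65.7 (63.5 to 68.0). Mylk, the kinase that phosphorylates it, stood at 849 CPM against 11.8, a ratio of 72.2. Cald1 (caldesmon, which restrains actomyosin) stood at 2771 CPM against 337 and Smtn (smoothelin, a mark of contractile smooth muscle) at 416 against 30.4. The non-muscle actins behaved otherwise: Actg1 stood at 1728 CPM in members and 1756 in fibroblasts, a ratio of 0.984 (0.970 to 0.998), and Actb at 7140 against 3192. Reads from parts shared by the closely alike actin genes cannot be told apart in these counts.

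The upstream sequence of 4 of these genes is shown because the known driver of the contractile programme, serum response factor with myocardin, binds the CArG box. Each sequence is the 250 bases before the RefSeq start site in GRCm38.p6, read 5′ to 3′ on the strand of the gene. Capitals mark a CArG box or a version with 1 G or C among the 6 A or T letters of its centre. The 4 windows are Acta2 at chr19:34255374-34255623 (minus strand), Myl9 at chr2:156775214-156775463 (plus strand), Actg1 at chr11:120348496-120348745 (minus strand) and Cnn1 at chr9:22099003-22099252 (plus strand).
Acta2: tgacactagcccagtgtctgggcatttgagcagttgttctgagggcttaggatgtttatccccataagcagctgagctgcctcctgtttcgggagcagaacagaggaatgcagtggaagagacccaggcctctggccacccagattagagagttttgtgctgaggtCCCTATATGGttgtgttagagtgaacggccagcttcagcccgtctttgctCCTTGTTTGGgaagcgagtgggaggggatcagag
Myl9: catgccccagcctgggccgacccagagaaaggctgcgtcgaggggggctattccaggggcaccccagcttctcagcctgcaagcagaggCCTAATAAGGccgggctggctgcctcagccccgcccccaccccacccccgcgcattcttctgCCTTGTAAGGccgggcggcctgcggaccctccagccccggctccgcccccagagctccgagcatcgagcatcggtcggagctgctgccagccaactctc
Actg1: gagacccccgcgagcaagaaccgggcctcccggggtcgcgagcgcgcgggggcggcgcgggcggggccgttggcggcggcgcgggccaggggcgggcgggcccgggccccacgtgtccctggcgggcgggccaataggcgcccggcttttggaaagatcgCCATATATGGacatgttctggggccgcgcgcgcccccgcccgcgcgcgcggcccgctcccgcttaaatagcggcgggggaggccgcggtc
Cnn1: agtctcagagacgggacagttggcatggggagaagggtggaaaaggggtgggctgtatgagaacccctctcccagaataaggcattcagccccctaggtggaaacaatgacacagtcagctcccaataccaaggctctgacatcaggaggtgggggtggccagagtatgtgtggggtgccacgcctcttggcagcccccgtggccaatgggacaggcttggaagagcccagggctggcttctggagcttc

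Acta2 held 2 boxes with 1 letter off, at 84 and 34 bases before the start. Myl9 held an exact box at 161 and one with 1 letter off at 99 bases before it. Actg1, whose level in members was close to that in fibroblasts, held an exact box at 90 bases before its start, and Cnn1 held none in this window. The CArG box was searched by its consensus, which reads the same on both strands, over 250 bases before to 50 after each start. It was found in 1.63% of 32851 RefSeq promoters, and in 9.98% when 1 letter was allowed off. Counted by gene, 488 of 27025 (1.81%) held it in at least 1 promoter, and 11.3% with 1 letter off. Of the 21 filament genes with a promoter in the table, 4 (19.0%) held an exact box: Actg1, Myl6, Myl9 and Cnn2. Of the 20 genes with the highest ratios, 15 were in the table and 1 (6.67%), Fbxl22, held one. A match is a description of the letters and not a measured binding site.

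The proteins that anchor filaments to the membrane and matrix were likewise higher. Of 32 genes of dense bodies, intermediate filaments and focal adhesions, 27 were at least 2-fold higher in members than in fibroblasts and 0 lower (median log2 ratio 2.04). Synpo2, a dense body protein, stood at 569 CPM in members against 18.2 in fibroblasts, and Pdlim3, which links to alpha-actinin, at 523 against 7.66. Des (desmin), the muscle intermediate filament, stood at 188 CPM against 1.43, yet at least 1 Des UMI was found in 33.8% of members only, against 0.588% of macrophages. Vim (vimentin), the filament of mesenchymal cells, stood at 5669 CPM against 3238.

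Transcription factors were split. Of 24 factors linked to smooth muscle genes or identity, 8 were at least 2-fold higher in members and 5 lower. Myocd, the myocardin coactivator, stood at 686 CPM in members, 0.700 in fibroblasts and 6.89 in all other barcodes, with at least 1 UMI in 94.3% of members and 1.22% of macrophages. Mef2c, a partner of myocardin in muscle, stood at 295 CPM against 46.0 in fibroblasts, and macrophages held 381 CPM of it. The Notch targets Heyl and Hey2 stood at 58.0 against 4.15 and 42.6 against 6.71 CPM. Srf itself stood at 18.9 CPM in members and 11.0 in fibroblasts. Klf4, which represses contractile genes when induced, was lower: 665 CPM in members against 1383 in fibroblasts, a ratio of 0.481 (0.470 to 0.491).

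**Figure D2:**
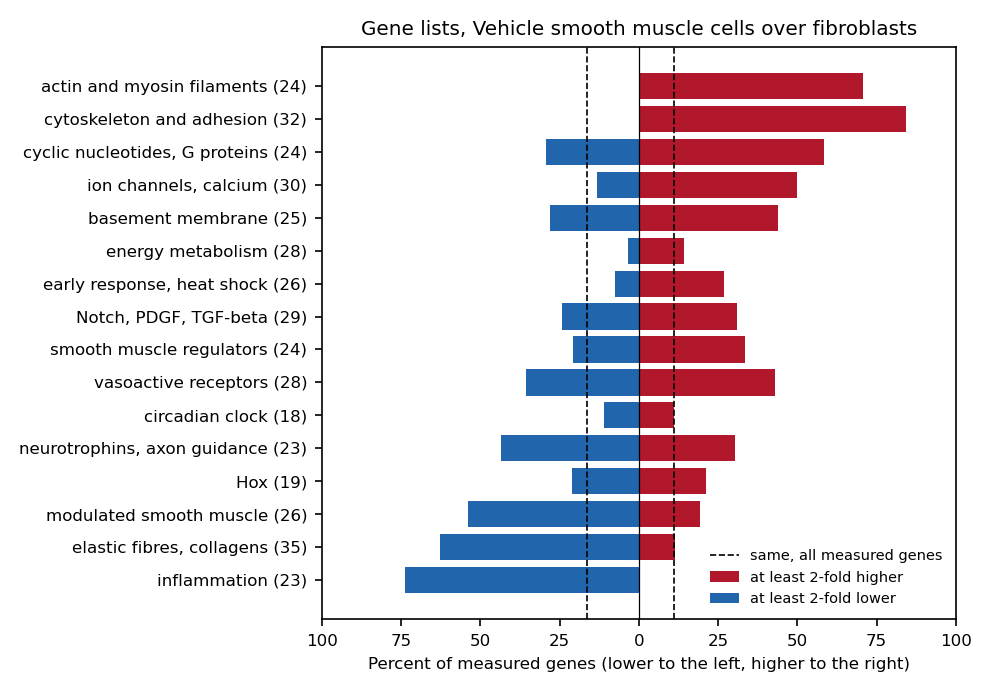
Share of the measured genes of each list that were at least 2-fold higher or lower in smooth muscle cells of the Vehicle library than in its fibroblasts, with the same shares over all measured genes. The filament list holds 17 of 24 genes higher and 0 lower, and the inflammation list 0 of 23 higher and 17 lower.

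Among ion channels and calcium handling genes, 15 of 30 measured were at least 2-fold higher in members than in fibroblasts and 4 lower (median log2 ratio 1.10). The higher ones included Kcnma1, the pore of the calcium-activated potassium channel, at 344 CPM against 11.6, Kcnab1, a potassium channel beta subunit, at 625 against 10.7, and Cacnb2, a calcium channel beta subunit, at 488 against 11.6. Cacna1c, the pore of the L-type calcium channel, stood at 204 CPM in members and 102 in fibroblasts, a ratio of 1.99. The subunits of the ATP-sensitive potassium channel are common pericyte markers: Kcnj8 stood at 28.7 CPM against 85.6 and Abcc9 at 90.4 against 166. Of the 10 pericyte markers listed, 8 were measured, and 4 of them were at least 2-fold higher in members than in fibroblasts and 2 lower (median log2 ratio 1.14). The higher ones were Rgs5, Cspg4 (a proteoglycan) at 208.4 CPM against 6.92, Notch3, and Cox4i2 (a respiratory chain subunit) at 9.76 against 0.277. The lower ones were Kcnj8 and Ndufa4l2 at 4.88 against 76.5 CPM, and Pdgfrb (a PDGF receptor) stood at 49.6 against 86.7. Higd1b and Vtn, which were not measured by the limits used, stood at 0.3002 and 0.600 CPM in Vehicle members.

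Receptors of vasoactive hormones and transmitters were split, with 12 of 28 measured at least 2-fold higher in members than in fibroblasts and 10 lower. Of the angiotensin receptors, Agtr1b (chr3:20314473-20367177, minus strand) stood at 18.2 CPM in members against 0.391 in fibroblasts, a ratio of 46.6 (30.6 to 74.2), with a UMI in 16.4% of members and 0.0784% of macrophages. Agtr1a (chr13:30336441-30382867, plus strand), the other mouse type 1 receptor, stood at 1.501 CPM in members, from 20 UMIs, against 8.08 in fibroblasts, a ratio of 0.186 (0.113 to 0.290). At 5000 UMIs per cell, Agtr1b was found in 7.49% of members and 0.143% of fibroblasts, and Agtr1a in 0.166% of members and 4.24% of fibroblasts. The copies are closely alike in their coding parts, where reads cannot be assigned to either. Agtr2 had no UMI in Vehicle members, which allows up to 0.225 CPM, and stood at 0.212 CPM in fibroblasts.

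Among the higher ones, Npy1r, a receptor of neuropeptide Y, stood at 116 CPM in members against 1.25 in fibroblasts, and Ramp1, the subunit that makes a receptor for CGRP, at 517 against 15.7. P2rx1, the ATP-gated channel at sympathetic junctions, stood at 70.0 CPM against 0.228, and Htr1b, a serotonin receptor, at 55.0 against 0.130. The adrenergic Adra1a stood at 23.9 CPM against 0.570, a ratio of 42.0 (29.6 to 61.4), whereas Adra1b was lower at 5.10 against 12.1 and Adra1d stood at 1.13 against 0.0326. Ednra, the main endothelin receptor of arterial muscle, stood at 9.91 CPM against 18.1 and Ednrb at 3.00 against 1.12. Adrb1, another adrenergic receptor, stood at 1.05 CPM in members.

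Downstream of these receptors, 14 of 24 genes of cyclic nucleotide and G protein signalling were at least 2-fold higher and 7 lower (median log2 ratio 1.81). Gucy1a1 and Gucy1b1, the subunits of the nitric oxide receptor, stood at 175 against 2.15 and 158 against 3.13 CPM in members and fibroblasts. Prkg1, the cGMP-dependent kinase that relaxes smooth muscle, stood at 1014 against 119 CPM. Rgs4, another brake on G protein signals, stood at 76.4 against 0.358 CPM.

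Of the Notch, PDGF and TGF-beta family genes, 9 of 29 were at least 2-fold higher and 7 lower. Notch3, the receptor characteristic of arterial muscle, stood at 46.9 CPM in members against 1.68 in fibroblasts, a ratio of 28.0 (22.7 to 34.8). Pdgfa, a growth factor ligand, stood at 209 against 18.9 CPM and Id1, a BMP target, at 461 against 50.8. Ccn2, the matricellular protein also known as connective tissue growth factor, stood at 3541 CPM against 487.

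The matrix genes separated into a few that were higher and many that were lower. Of 35 elastic fibre and collagen genes measured, 4 were at least 2-fold higher in members than in fibroblasts and 22 lower (median log2 ratio -1.46). The higher ones were Mgp (matrix Gla protein, an inhibitor of calcification) at 10834 CPM and a ratio of 5.42, Eln (tropoelastin) at 1778 against 646, Col18a1 (a basement membrane collagen) at 929 against 38.7, and Sparcl1 at 252 against 93.4. Lum and Fbln1 were among the lower ones at 27.9 against 499 and 52.8 against 944 CPM. Dcn and Col1a1 were also lower, but they had chosen the fibroblasts. Basement membrane genes ran the other way, with 11 of 25 higher and 7 lower. Col4a1 stood at 650.3 against 201 CPM, Lama5 at 57.3 against 0.505 and Sgca (alpha-sarcoglycan) at 23.4 against 0.130.

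Genes linked with synthetic or modulated smooth muscle were mostly lower than in fibroblasts: 5 of 26 were at least 2-fold higher and 14 lower. This list also includes Dcn, which had helped to choose the fibroblasts. The higher ones included Postn (periostin) at 743 against 60.5 CPM and Tnc (tenascin C) at 183 against 1.63. Fn1 (fibronectin) stood at 2492 against 2291 CPM. Cytokine, chemokine and antigen presentation genes were lower as a group, with 0 of 23 at least 2-fold higher and 17 lower (median log2 ratio -2.52). Cxcl12, a chemokine, stood at 41.0 against 404 CPM, Ccl2 at 82.8 against 503 and Il6 at 13.3 against 166.

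Genes that act on nerves were split. Of 23 neurotrophic and axon guidance genes, 7 were at least 2-fold higher in members and 10 lower. Unc5c, a netrin receptor, stood at 225 CPM against 0.896, Sema3a, a repellent of sympathetic axons, at 80.9 against 1.61, Bdnf (brain-derived neurotrophic factor) at 46.7 against 1.11, and Ntf3 (neurotrophin 3) at 102.0 against 29.4. Slit3, a guidance ligand of Robo receptors, stood at 419 against 902 CPM.

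Early response and heat shock genes, which tissue digestion is known to induce, were at least 2-fold higher for 7 of 26 and lower for 2. The heat shock genes Hspa1b and Hspa1a, whose near-identical copies can share reads, stood at 1264 against 225 and 1533 against 280.2 CPM, and Fos, an early response factor, at 6793 against 4334. Of 28 respiration and glycolysis genes, 4 were higher and 1 lower, among them Ldhb (lactate dehydrogenase B) at 114 against 23.2 CPM. Of 18 clock genes, 2 were higher and 2 lower; Per2, a clock repressor, stood at 51.0 against 15.03 CPM.

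Hox genes, which record position along the body axis, were not shared evenly by smooth muscle cells and fibroblasts. Of 19 measured, 4 were at least 2-fold higher in smooth muscle cells than in fibroblasts and 4 lower. The higher ones were Hoxd8 (chromosome 2) at 14.0 CPM against 0.375, Hoxa10 (chromosome 6) at 23.0 against 0.961, Hoxc10 (chromosome 15) at 33.8 against 1.94 and Hoxa9 (chromosome 6) at 20.6 against 2.44. Hoxa10, Hoxc10 and Hoxa9 belong to the posterior end of their clusters. Hoxc9, of the same number as Hoxa9, stood at 9.91 CPM against 6.89, a ratio of 1.44 (1.17 to 1.75). The lower ones were Hoxb8 at 4.88 against 16.9 CPM, Hoxc8 at 10.1 against 29.2, Hoxb5 at 7.13 against 16.5 and Hoxb6 at 13.6 against 29.5. Hoxa7, which lies near Hoxa9 on the chromosome, stood at 56.7 CPM in members and 69.9 in fibroblasts, a ratio of 0.811. The ratio for Hoxc10 was 17.5 (14.2 to 21.6) and that for Hoxa10 was 23.9 (18.0 to 32.1). Hoxa9 and Hoxa10 lie side by side and are known for readthrough transcripts, so their counts may share reads.

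**Figure D3:**
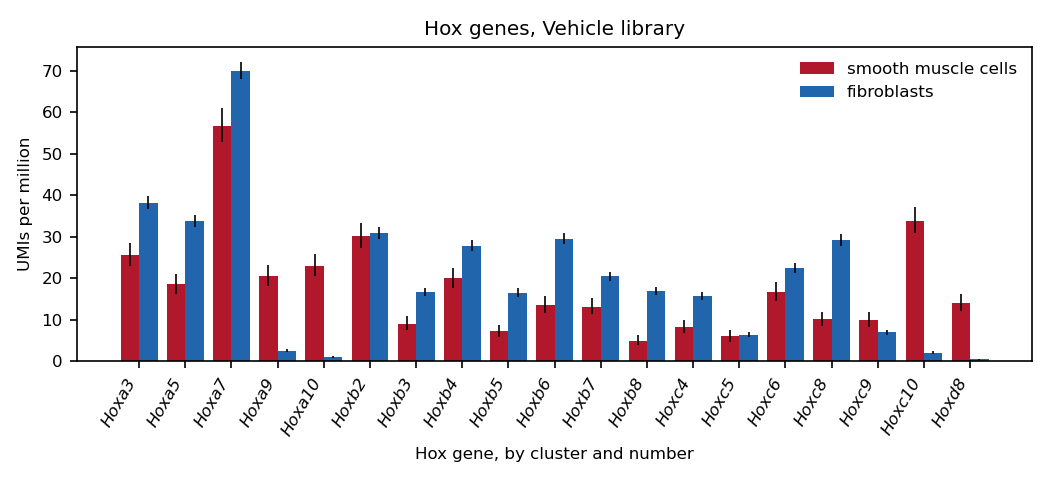
Levels of the measured Hox genes in smooth muscle cells and fibroblasts of the Vehicle library, in CPM with 95% counting intervals. Hoxd8, Hoxa10, Hoxc10 and Hoxa9 lie at least 2-fold above the fibroblasts, and Hoxb8, Hoxc8, Hoxb5 and Hoxb6 at least 2-fold below.

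The Vehicle members were not uniform. Grouping them on 1000 variable genes without those of the rule gave 7 sub-clusters, which are called by number because the same genes formed them, and their differences are descriptions. Sub-clusters 0, 1 and 2 held 213, 139 and 103 cells, and Rgs5 stood in them at 4464, 3005 and 6085 CPM. Sub-clusters 4 and 5 held 56 and 27 cells, with Rgs5 at 36.4 and 360 CPM. The summed level of Rgs5 was thus low over 83 of the 628 members, though not in each cell. In sub-cluster 5, 3 cells held 220 of its 332 UMIs. An Rgs5 UMI was found in 33.7% of the 83 cells, against 95.4% of the 455 cells of sub-clusters 0, 1 and 2.

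The Hox genes that were at least 2-fold higher in members than in fibroblasts followed the same division. Hoxc10 stood at 3.51 CPM over sub-clusters 4 and 5, against 42.4 over 0, 1 and 2, with a UMI in 8.43% against 50.5% of cells and in 0.0392% of macrophages. Hoxa10 stood at 3.01 against 28.3 CPM, Hoxa9 at 5.02 against 25.4 and Hoxd8 at 1.00 against 17.9. Hoxa7 did not follow it, at 57.2 against 57.0 CPM. Smooth muscle markers outside the rule were present on both sides. They summed to 14833, 17268 and 16562 CPM in sub-clusters 0, 1 and 2 and to 15656 and 12198 in 4 and 5. Myh11, which the rule required of every member, stood at 3915, 3394 and 3288 CPM in 0, 1 and 2. It stood at 3409 and 2622 CPM in 4 and 5.

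Each of these sub-clusters had its own leading genes, those of the highest ratio to all other members. Sub-cluster 0 was led by Epha7 (an ephrin receptor), found in 88 of its 213 cells. It held Erbb4 at 568 CPM in 200 cells and Unc5c at 357 in 196. Sub-cluster 1 was led by Lgals3 (galectin 3), Arc and the heat shock gene Dnajb1, with Hspa1b at 1954 CPM. Lgals3, Arc and Dnajb1 were found in 67, 30 and 127 of its 139 cells, so the first of these and Arc were absent from most. Sub-cluster 2 was led by the red blood cell genes Alas2 and Bpgm, but these were found in 5 and 23 of its 103 cells. Its red blood cell markers summed to 17312 CPM, with 24970 of the 36127 UMIs in 3 cells and a median of 172 CPM per cell. It also held Des at 482 and Actg2 at 325 CPM. Sub-cluster 4 was led by Ntrk2 (a receptor of neurotrophins) and Rgs2, with Klf4 at 2070.0 CPM and Sncg (gamma-synuclein) at 531. Its early response and heat shock genes summed to 56462 CPM, against 29370.0 to 39167 in the other sub-clusters. Sub-cluster 5 had its highest ratio for Vcam1 (an adhesion molecule for leukocytes) at 784 CPM, but 524 of the 724 UMIs lay in 1 cell, and without that cell the level was 225 CPM. Igfbp2, next in rank, stood at 829 CPM and was found in 24 of its 27 cells. Acan (aggrecan) stood there at 233 CPM in 20 cells, Mgp at 29599 in 27 and Sost at 1241 in 24, whereas 271 of the 302 UMIs of Comp lay in 3 cells. The cells of sub-cluster 5 had a median of 29137 UMIs and 0 of 27 were marked as doublets.

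Sub-clusters 3 and 6, with 73 and 17 cells, carried fibroblast genes. Fibroblast markers summed to 16891 and 14907 CPM there, against 1187 to 1581 in the others, and a doublet caller (Scrublet) marked 62 (84.9%) and 16 (94.1%) of their cells. Sub-cluster 6 also held 21250 CPM of red blood cell markers. Over all members, 3 of 45, 0 of 15 and 93 of 628 (14.8%) were marked in AngII_VWR, AngII and Vehicle. The marks are the highest scores up to a number fixed by the barcode count, which gave 15.2%, 7.92% and 11.1% of all barcodes. The caller's own limit called 826, 160 and 282 barcodes in the same order. Doublets were kept, as the rule is written, and values without sub-clusters 3 and 6 are given where they turned the direction of a gene list between libraries.

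**Figure D4:**
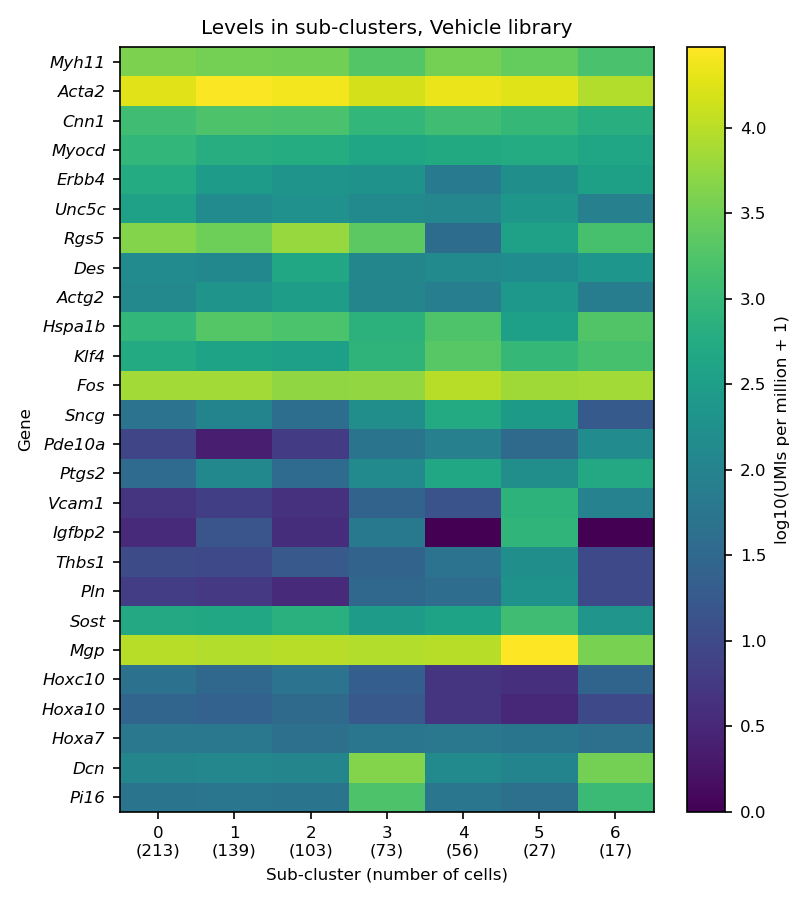
Levels of selected genes in the 7 sub-clusters of Vehicle smooth muscle cells, in CPM on a log colour scale. Rgs5, Hoxc10 and Hoxa10 are low in sub-clusters 4 and 5, and fibroblast genes are high in 3 and 6.

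The 15 AngII members had filament genes at levels close to those of Vehicle members. Myh11 stood at 5051 CPM in AngII and 3314 in Vehicle members, Acta2 at 19930.0 and 21278, and Tagln at 14004 and 14310.0, all 3 used by the rule. Of the 24 other filament genes, 0 were at least 2-fold higher in AngII and 1 lower (median log2 ratio 0.15), where 9.47% of 10687 measured genes were higher and 10.8% lower. By any amount, 17 were higher and 7 lower, where 5548 of all measured genes were higher and 5139 lower. Tpm2 stood at 5357 CPM in AngII members against 4491 in Vehicle members, Myl9 at 3974 against 3787 and Lmod1 at 774 against 668. Cnn1 differed by a ratio of 0.984 (0.892 to 1.08), so no difference was detectable at this depth. Calcium and ion channel genes were at least 2-fold higher for 9 of 33 and lower for 1. Kcnq5, among the higher ones, stood at 471 CPM in AngII members against 207 in Vehicle members, a ratio of 2.27. Of its AngII UMIs 70.1% lay in 1 cell, and without that cell the ratio was 0.926. Cacna1c stood at 630.3 CPM in AngII members against 204 in Vehicle members, and Pln (phospholamban, which brakes the calcium pump) at 119 against 23.9. For Cacna1c and Pln the part of single cells is not given here, so a rise across the AngII members is not shown.

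Rgs5 was the lowest named gene in AngII members relative to Vehicle members. It stood at 153 CPM in AngII, against 3470 in Vehicle, 22.7-fold lower (17.2 to 30.6). It was found in 5 of 15 AngII members, against 537 of 628 Vehicle members, and 74.0% of its AngII UMIs lay in 1 cell. Thinned to 5000 UMIs, it was found in 26.7% of AngII and 80.4% of Vehicle members, beside 0.160% and 4.50% of the macrophages of AngII and Vehicle. The other low genes were Erbb4 at 52.0 against 336 CPM, Col4a6 (a basement membrane collagen) at 39.8 against 200.1, Hspb1 (a small heat shock protein that binds actin) at 1496 against 6678, Efna5 (an ephrin ligand) at 61.2 against 273, and Ptprz1 at 113 against 441. Hoxc10 had 0 UMIs in AngII members, which allows up to 9.18 CPM, against 33.8 CPM in Vehicle, and Hoxa10 had 1 UMI (3.06 CPM) against 23.0. Hoxa7 stood at 113 CPM in AngII and 56.7 in Vehicle members. Hspb1 was also found in fewer macrophages, 17.1% in AngII against 42.2% in Vehicle, so its difference was not limited to the members.

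The highest named genes in AngII members rested on unequal numbers of cells. Notch3 stood at 294 CPM in AngII, against 46.9 in Vehicle, a ratio of 6.26 (5.00 to 7.77), and was found in 14 of 15 AngII members against 302 of 628 Vehicle members. At 5000 UMIs per cell it was found in 66.7% of AngII and 17.6% of Vehicle members, beside 0.479% and 0.234% of the macrophages of AngII and Vehicle. Sncg stood at 756 against 127 CPM and was found in 13 of 15 AngII members, beside 0.348% of AngII macrophages. Timp4 (an inhibitor of matrix proteases) stood at 306 against 50.7 CPM, in 9 of 15 AngII members and 0.846% of AngII macrophages. For the other 3 genes, 1 cell held most molecules: Thbs1 (thrombospondin 1) stood at 639 against 26.5 CPM with 64.6% of its AngII UMIs in 1 cell, Il1r1 (the interleukin 1 receptor) at 532 against 63.5 with 66.1%, and Pde10a (a phosphodiesterase) at 211 against 20.6 with 65.2%. Over all alternatives the log2 ratio lay between -6.25 and -3.31 for Rgs5 (-4.50 as reported), between 1.88 and 3.56 for Notch3 (2.62) and between -4.64 and -1.60 for Erbb4 (-2.67). Without the AngII member of highest UMI total, which held 26.7% of the AngII members' UMIs, it was 2.23 in place of 3.29 for Pde10a, -4.64 for Erbb4 and -3.90 in place of -2.30 for Col4a6.

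These genes were also set beside the Vehicle sub-clusters, a comparison chosen after the values were seen. Rgs5 stood at 153 CPM in AngII members, 186 in Vehicle sub-clusters 4 and 5, and 4377 in 0, 1 and 2. Sncg stood at 756, 412 and 63.8 CPM in the same order, Notch3 at 294, 89.8 and 39.7, Erbb4 at 52.0, 114 and 406, and Hspb1 at 1496, 6164 and 7188. Of the genes just listed, Rgs5 alone had an AngII level close to that of sub-clusters 4 and 5, but few cells set the level on each side. In sub-cluster 5, 220 of the 332 Rgs5 UMIs lay in 3 cells, and most AngII UMIs lay in 1 cell, as given above. The median cell held 0 CPM of Rgs5 in sub-cluster 4 and 28.8 in sub-cluster 5. Sncg and Notch3 were higher in AngII members than in either Vehicle set, and Erbb4 and Hspb1 lower than in either. Hoxa9, Hoxa10 and Hoxc10 were not in this set. They too were low in sub-clusters 4 and 5, and they had 3, 1 and 0 UMIs in AngII members. Whether AngII members correspond to sub-clusters 4 and 5 was not tested.

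**Figure D5:**
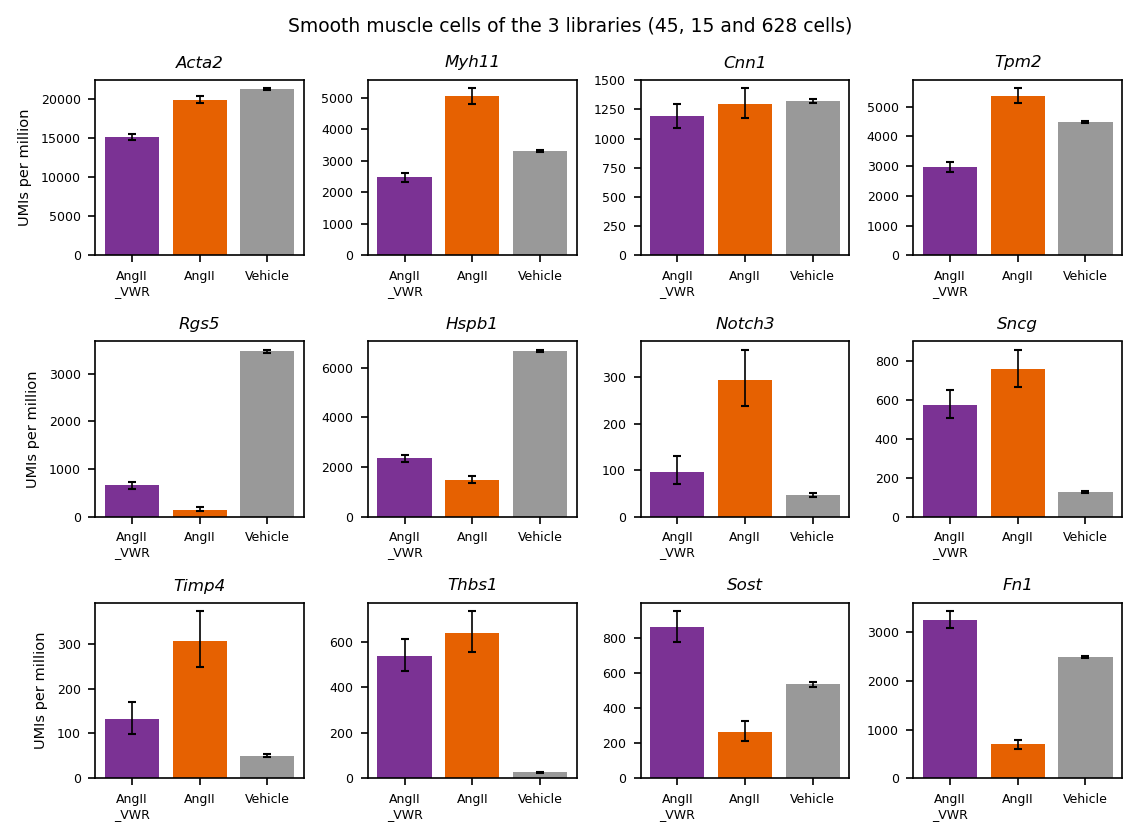
Levels of selected genes in the smooth muscle cells of the 3 libraries, in CPM as bars with 95% counting intervals, each gene on its own axis. Rgs5 is 657 in AngII_VWR (45 cells), 153 in AngII (15 cells) and 3470 in Vehicle (628 cells), while Tpm2 is 2964, 5357 and 4491.

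Inflammatory genes were at least 2-fold higher in AngII members for 11 of 21 and lower for 1 (median log2 ratio 1.08). Il6 stood at 434 CPM in AngII members, from 142 UMIs in 5 cells, against 13.3 in Vehicle members, and Ccl2 (a monocyte chemokine) at 211 against 82.8. Fibroblasts of the same libraries also differed, with Il6 at 605 CPM in AngII and 166 in Vehicle, and their part in the members' values was not tested. The count of 11 was 5 when the rule's genes had to reach 2% of UMIs and 5 when only genes of at least 100 CPM were measured. The early response and heat shock genes were lower for 7 of 26 and higher for 1. The heat shock genes Hspa1a and Dnajb1 stood at 526 against 1533 and 52.0 against 256 CPM. Macrophages differed too, with Hspa1a in 64.2% in AngII against 81.1% in Vehicle and Hspa1b in 37.0% against 65.2%. Their median depth was 15108 UMIs in AngII and 12731 in Vehicle.

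Pericyte markers differed gene by gene, with 6 of 10 at least 2-fold higher in AngII members and 1, Rgs5, lower. Higd1b stood at 42.8 CPM, from 14 UMIs in 5 AngII members, against 0.3002 in Vehicle members, and Vtn at 52.0 CPM, from 17 UMIs in 3 cells, against 0.600. The 10 markers summed to 1169 CPM in AngII and 3910.0 in Vehicle members, a direction set by Rgs5: without it the other 9 summed to 1016 CPM in AngII and 440.0 in Vehicle members. Receptors were split, with 10 of 28 higher and 7 lower: Agtr1b stood at 49.0 CPM, from 16 UMIs, against 18.2, and Ednra at 45.9 against 9.91. Red blood cell markers were lower for 5 of 5, and 24970 of their 49969 Vehicle UMIs lay in the 3 cells of sub-cluster 2 given above. The difference was not limited to those cells or to the members. Hbb-bs was found in 2 of 15 AngII and 555 of 628 Vehicle members, and in 34.7% against 87.0% of macrophages. In the other barcodes the markers summed to 1727 CPM in AngII and 15349 in Vehicle. Fibroblast markers were higher for 0 of 12 and lower for 6, with a summed level of 2839 CPM in AngII and 3279 in Vehicle members. Without Vehicle sub-clusters 3 and 6 they were higher for 6 and lower for 2, against 1292 CPM in Vehicle. Elastic fibre and collagen genes were higher for 3 of 34 and lower for 7, and synthetic genes higher for 4 of 25 and lower for 8. Without those sub-clusters the counts turned to 6 higher and 2 lower, and 9 higher and 3 lower, so no direction is given for the fibroblast, elastic or synthetic list.

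Between the AngII_VWR and AngII members few filament genes differed by 2-fold or more. The AngII library is also the one set against Vehicle above, so the comparisons share it. Of 7890 measured genes, 10.3% were at least 2-fold higher in AngII_VWR members and 7.21% lower. Of the 24 other filament genes, 0 were higher and 1 lower (median log2 ratio -0.13). By any amount, 7 were higher and 17 lower, where 4260 of all 7890 measured genes were higher and 3630 lower. The shift was small and rests on the same 15 AngII cells as the comparison with Vehicle. Of the genes of the rule, Myh11 stood at 2473 CPM in AngII_VWR and 5051 in AngII members, a ratio of 0.490 (0.453 to 0.529), and Acta2 at 15115 and 19930.0. The AngII member of highest UMI total held 39.2% of the AngII Myh11 UMIs, and without it Myh11 stood at 4185 CPM in AngII, a ratio of 0.591.

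The named genes higher in AngII_VWR were Sost, Id1, Homer1, Rgs5, Des and Spp1. Sost stood at 858 CPM in AngII_VWR, against 263 in AngII, a ratio of 3.26 (2.57 to 4.17), and was found in 34 of 45 against 7 of 15 members, beside 0.233% and 0.299% of the macrophages of AngII_VWR and AngII. Id1, a BMP target, stood at 646 against 263 CPM, in 38 of 45 against 11 of 15 members, beside 5.26% and 3.88% of the macrophages. Homer1, a scaffold of calcium signalling, stood at 367 against 79.5 CPM, but 82 of its 159 AngII_VWR UMIs lay in 3 cells, and the other AngII_VWR barcodes held it at 171 CPM. It was found in 20 of 45 against 11 of 15 members and in 29.5% and 47.7% of the macrophages. At 5000 UMIs per cell it was found in 33.3% of the members of each of these libraries. Rgs5 stood at 657 against 153 CPM, a ratio of 4.30 (3.17 to 5.93), but it was found in 6 of 45 against 5 of 15 members (1.08% and 0.597% of the macrophages), and 271 of its 285 AngII_VWR UMIs lay in 3 cells. With equal weight per cell its log2 ratio was 0.37 in place of 2.10, and that of Des was 0.30 in place of 1.40. Spp1 (osteopontin) had 318 UMIs in AngII_VWR members, 316 of them in 1 cell, and 0 UMIs in AngII members.

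The named genes lower in AngII_VWR were Ptpn2 (a phosphatase), Il1r1, Kpna1 (a nuclear import factor), Chsy3 (a chondroitin synthase), Syne2 (a nuclear envelope protein) and Gadd45g (a stress response gene). Ptpn2 stood at 53.1 against 434 CPM and Il1r1 at 76.1 against 532. Ptpn2, Kpna1 and Gadd45g were found in 34.6, 16.7 and 14.6% of AngII_VWR macrophages, against 64.7, 41.8 and 34.7% of AngII macrophages. Il1r1 and Chsy3 were found in 6.72 and 1.92% against 7.96 and 2.09%. Shares in this paragraph are not thinned. Median depth was 8996 against 19033 UMIs in members and 4678 against 15108 in macrophages. In Ptpn2, Il1r1 and Chsy3, 1 AngII cell held 59.2, 66.1 and 57.3% of the AngII UMIs. Syne2 stood at 96.9 against 370.2 CPM and was found in 23 of 45 against 14 of 15 members, with 28.9% of the AngII UMIs in 1 cell, and in 19.1% and 39.7% of the macrophages of AngII_VWR and AngII. Notch3 stood at 96.9 against 294 CPM, a ratio of 0.330 (0.224 to 0.479), found in 25 of 45 against 14 of 15 members and in 0.669% and 0.896% of the macrophages.

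Inflammatory genes were lower in AngII_VWR members for 9 of 18 and higher for 2 (median log2 ratio -1.06). Socs3, which is induced by interleukin 6 signals, stood at 41.5 against 587 CPM, 14.2-fold lower (8.71 to 24.4). Il6 had 0 UMIs in AngII_VWR members, which allows up to 6.92 CPM, against 434 CPM in AngII. Fibroblasts of the same libraries held Socs3 at 115 against 693 CPM and Il6 at 81.6 against 605, and their part in the members' values was not tested. The count of 9 was 4 when the rule's genes had to reach 2% of UMIs.

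Matrix genes were higher in AngII_VWR members: 13 of 34 elastic fibre and collagen genes and 15 of 25 synthetic genes were at least 2-fold higher, and 1 of each lower (median log2 ratios 0.81 and 1.66). Fn1 stood at 3260.0 against 698 CPM, a ratio of 4.67 (4.06 to 5.398), Fbn1 (fibrillin 1) at 607 against 138, and Dcn at 1610.0 against 321. In AngII_VWR, 598 of the 1413 Fn1 UMIs lay in 1 cell, and without it Fn1 stood at 2005 CPM, a ratio of 2.87. Of the 698 Dcn UMIs there, 345 lay in 3 cells. Without the cell richest in Fn1 the counts of higher genes were 12 and 15 in place of 13 and 15. Fibroblast markers moved with them, with 8 of 11 at least 2-fold higher and 0 lower, and a summed level of 5952 CPM in AngII_VWR and 2839 in AngII members. Their part in the matrix counts was not tested. When the rule's genes had to reach 2% of UMIs, the counts were 5 and 4 in place of 13 and 15. Sparcl1 went the other way, at 669 against 1487 CPM.

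Receptor levels across the 3 libraries rest on few molecules. Npy1r stood at 309, 187 and 116 CPM in AngII_VWR, AngII and Vehicle members, and it was found in 33 of 45, 9 of 15 and 444 of 628 of them. Among the 36, 15 and 601 members with at least 5000 UMIs, thinned to that depth, it was found in 75%, 53.3% and 37.9%, beside 0.188%, 0.0532% and 0.188% of the 1598, 1878 and 2133 macrophages of that depth. Ramp1 stood at 209.9, 339.6 and 517 CPM in the same order. Agtr1b stood at 20.8, 49.0 and 18.2 CPM from 9, 16 and 243 UMIs. The ratio of AngII_VWR to AngII for Agtr1b was 0.424 (0.165 to 1.02), and its interval holds 1.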

How the data were processed

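The deposited files were raw UMI counts per gene and barcode (whole numbers) of 3 libraries, written by Cell Ranger 7.1.0 for AngII_VWR and 7.0.1 for AngII and Vehicle per the file headers, a difference that runs with the group. The build was mm10 per the submitters' processing notes, and whether intronic reads were counted was not given in the sources used here. Per the labels, digested cells were strained at 40 µm and freed of red blood cells by lysis before 3′ libraries were made.

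From these counts, UMIs were added up per population and scaled to 1000000 (CPM). Macrophages were barcodes with at least 0.3% C1q and neither Pdgfra nor 2 Myh11 UMIs. Called means at least 2-fold on log2(CPM + 1) ratios; no test was run. Sub-clusters came from Leiden clustering (scanpy 1.11.5, leidenalg 0.10.2; 20 components, 15 neighbours, resolution 0.5). Scrublet marked the highest scores at 0.8% per 1000 barcodes. Gene positions are those of the annotation of mm10, matched by gene ID, and promoters are RefSeq's. Other tools were matplotlib 3.10.9, pandas 2.3.3, scipy 1.17.1, numpy 2.4.6 and Python 3.11.15, and the calculations were tested on simulated data.

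The members and lists were chosen with earlier results of these data known. Named genes, without those of the rule and without mitochondrial, ribosomal, globin, immunoglobulin and unnamed genes, were the 20 highest ratios to other Vehicle barcodes (at least 100 CPM and 50 UMIs) and the 5 lowest, the 4 highest levels and 4 highest ratios in each list, listed receptors, and the 6 highest and 6 lowest ratios between libraries (at least 200 CPM in the higher one, and at least 2-fold over its other barcodes). Genes named outside this rule, among them Sparcl1, Il6, Socs3, Lum, Fbn1, Higd1b, Cox4i2, Ndufa4l2 and the Hox genes that differed, were chosen after their values were seen. Alternatives changed the filters, the limits of the rule, doublets, depth, weighting, pseudocount, low-value filter, free RNA and, after the values were seen, cells left out. A few genes that these rules name are not reported here.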

Additional observations from a re-analysis of the deposited data

How the results depend on the processing

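No paired analysis was possible because each group was 1 library. Ratios were recomputed for the genes named by rank against other Vehicle barcodes or between libraries. The ratios to fibroblasts of single genes were not recomputed. No recomputed ratio changed sign: of 685, 679 were still at least 2-fold in the same direction, the others being Rgs5, Spp1 and Des between AngII_VWR and AngII. In size, 307 of the 685 fell outside the counting interval of the reported ratio. With at most 5% mitochondrial UMIs the member shares were 0.120% in AngII_VWR, 0.0748% in AngII and 3.80% in Vehicle, and 1590.0 genes were higher in AngII than in Vehicle members. The Vehicle share was 4.94% with at most 20% mitochondrial UMIs and 5.37% with at least 2000 UMIs and 1000 genes. With the rule's genes at 2% or more, the shares were 0.147% in AngII_VWR and 4.13% in Vehicle, and 486 genes were higher in AngII_VWR than in AngII. With a pseudocount of 10 CPM the higher and lower counts were 758 and 1479 against others, 804 and 1094 against fibroblasts, 333 and 335 for AngII over Vehicle, and 429 and 326 for AngII_VWR over AngII. With no low-value filter, AngII over Vehicle gave 1559 and 2560.0, and AngII_VWR over AngII 3073 and 2048. Among alternatives chosen after seeing the data, leaving out Vehicle sub-clusters 3 and 6 gave a Vehicle share of 3.91%, and measuring from 100 CPM gave 130.0 and 76 for AngII over Vehicle and 100 and 104 for AngII_VWR over AngII. Depth limits AngII most, where 3 UMIs equal 9.18 CPM over 15 cells.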
